A study of Mus musculus with 60 samples.

Results

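The genes described here are 56 cytosolic ribosomal protein genes, 34 of the large subunit (named Rpl) and 22 of the small subunit (named Rps). They were taken by symbol, by a rule that uses no measured value, and all 56 were found among the 20423 genes of the deposited table. RNA of whole tissue was sequenced in 60 mouse brain libraries, 20 each from striatum, cerebellum and cortex, to see how loss of paraoxonase 2 (PON2), a mitochondrial and membrane enzyme with antioxidant activity, alters transcripts by region. Each region held 4 groups of 5 libraries, which were male and female PON2-deficient mice (KO below, homozygous) and male and female wild-type mice (WT below). All were littermates bred from heterozygous parents on a C57BL/6J background, tested for behaviour and then killed at 3 to 4 months. The labels do not say whether equal replicate numbers in different regions belong to the same mouse, and the p-values rest on the spread among the libraries sequenced.

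Cytosolic ribosomes are built from a small subunit, which reads the mRNA, and a large subunit, which joins amino acids, and each subunit takes up its proteins in nearly fixed proportion. Ribosomal protein mRNAs are short, abundant and found in every cell, and most start with a pyrimidine run, the 5′ terminal oligopyrimidine (TOP) motif, through which mTORC1 and LARP1 control their translation. In neurons part of this RNA lies in dendrites and axons. In bulk tissue, fewer cells of a type and less RNA per cell cannot be told apart.

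Library totals were 26.1 M to 28.1 M expected counts (estimates of read pairs per gene, M for mega). Levels are given as CPM (counts for each 1 M of the library total) after TMM scaling, and log2 changes come from edgeR's quasi-likelihood fit. Pon2 itself had lowest, median and highest levels of 2.34, 3.28 and 5.62 CPM in KO cortex, against 50.2, 56.6 and 58.9 CPM in WT cortex. The KO range lay below the WT range in the other regions too, at 2.54 to 6.91 CPM in KO striatum against 44.7 to 56.8 CPM in WT striatum, and 0.457 to 1.26 CPM in KO cerebellum against 39.2 to 51.4 CPM in WT cerebellum. Region markers fitted the labels: the summed level of 8 striatal projection neuron genes was 3721 to 7386 CPM in striatum against at most 1284 CPM elsewhere, and that of 8 granule neuron genes was 4626 to 5354 CPM in cerebellum against at most 200 CPM elsewhere.

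Some libraries stood apart in these genes. For each library the log2 CPM of each gene was set against the mean of its region, and the median over the 56 genes was taken. In Striatum_M_KO (male KO striatum) the 5 values were -0.11, -0.065, -0.086, 0.040 and 1.01, and the last, replicate 5, held nearly all of the spread of that group. In Striatum_M_WT the values were -0.12, -0.12, -0.12, -0.13 and 0.14, with replicate 5 again the highest. In Cerebellum_M_KO the values were -0.0055, -0.032, -0.021, -0.071 and -0.030, against -0.025, 0.00051, -0.0088, 0.27 and 0.014 in Cerebellum_M_WT. In Cortex_M_KO the values were -0.016, -0.045, -0.029, -0.064 and -0.054, against 0.056, 0.091, 0.17, -0.085 and 0.032 in Cortex_M_WT. Male genotype medians are given below with and without these libraries, as are other results where stated.

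**Figure D1:**
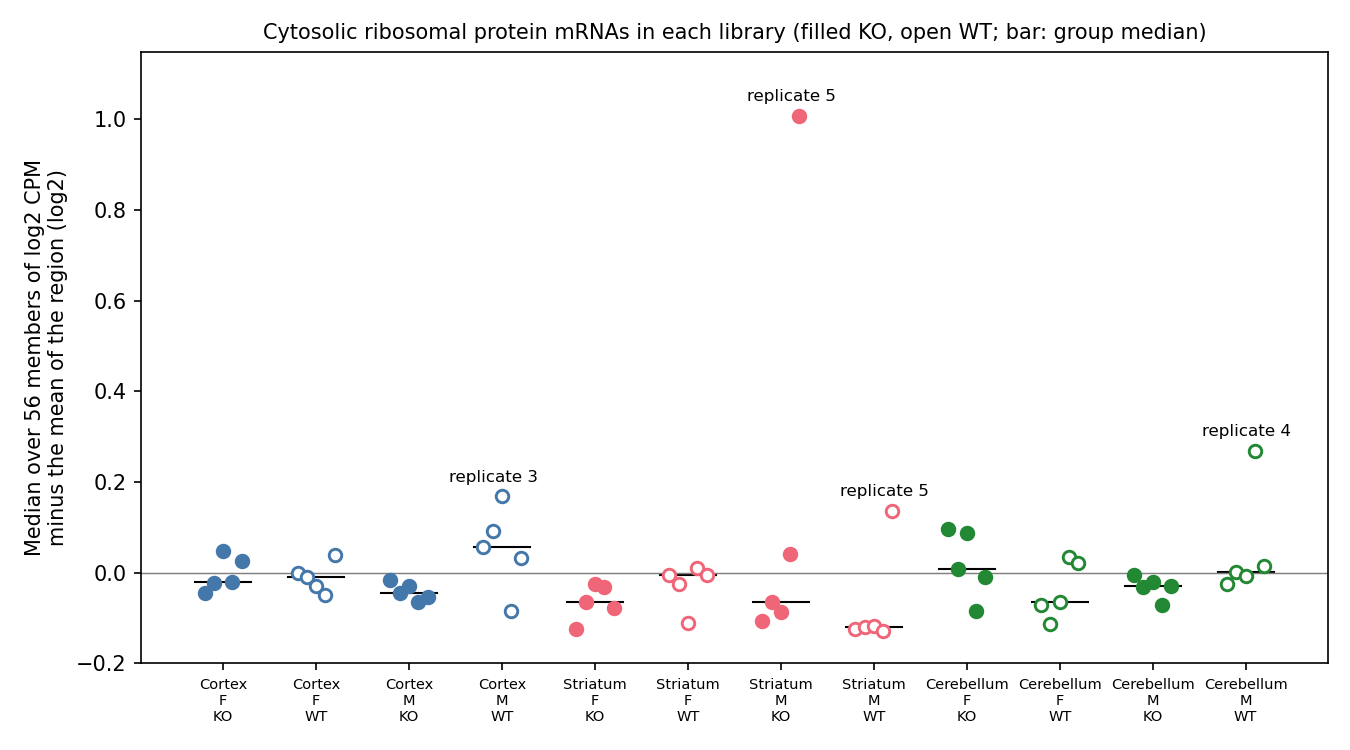
Median over the 56 genes of log2 CPM minus the mean of the region, 1 point per library, for 12 groups of 5 (KO filled and left of WT, open; bar, group median). Male KO striatum replicate 5 sits at 1.01, and the next highest library, male WT cerebellum replicate 4, at 0.27.

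The spread of these genes between libraries of a region depended on 1 library. Over all libraries, the SD of log2(CPM + 1) within a region, averaged over the 3 regions, had a median of 0.148 over the 56 genes and 0.142 over all genes at least as high as the lowest of them. Without Striatum_M_KO replicate 5 the medians were 0.0937 over the 56 genes and 0.125 over that wider set. The wider set has 11902 genes and includes the 56. Its lower bound is the level of Rps27, far below most of the 56, so the sets are not matched in level. Rpl4, a core protein of the large subunit, spread least, with an SD of 0.0985 over all libraries and 0.0592 without that library, where Rpl24 (0.0692) and Rpl19 (0.0706) followed. Rps27 spread most, with 0.708 over all libraries and 0.713 without that one, where Rps23 (0.173) and Rpl12 (0.145) followed. These 3 share sequence with other rows of the table, as described below. Together the 56 genes took 1.05% to 2.25% of the counts in striatum (median 1.14%, and at most 1.23% without Striatum_M_KO replicate 5), 0.802% to 1.07% in cerebellum (median 0.874%) and 0.974% to 1.17% in cortex (median 1.02%).

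Levels per kb of transcript put the stalk protein Rplp1 first, at 947.5 CPM per kb (mean of the 3 regions). Rps29, a small zinc-binding protein of the small subunit, followed at 806, Rpl13a at 683 and Rps15 at 597 CPM per kb. At the low end stood Rpl12 at 13.0, Rps27 at 15.3, Rpl5 at 22.4 and Rps20 at 33.0 CPM per kb. The low place of Rps20 goes with its annotated transcript of 3706 nt, the longest of the 56, and Rpl12, Rps27 and Rpl5 share their coding sequence with other rows. The transcripts are short: their median annotated length was 758 nt, against 2071 nt for all genes, and the shortest were Rpl38 (367.5 nt), Rps28 (382 nt) and Rps29 (390 nt). The longest after Rps20 were Rpl22 (2048 nt) and Rpsa (1768.5 nt).

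For 4 of the 56 genes most of the reads were given to a copy elsewhere in the genome. Rps27 (small subunit, chr3:90212522-90213651, minus strand), Rpl12 (base of the stalk, chr2:32961559-32965345, plus strand), Rpl5 (5S rRNA binding, chr5:107900502-107909005, plus strand) and Rpl10 (joining of the subunits, chrX:74270812-74273135, plus strand) each share their whole coding sequence with a processed copy that has a row of its own. The copies are Rps27rt (chr9:114982366-114982739, minus strand), Gm10275 (chr10:29698746-29699380, minus strand), Gm15500 (chr7:114705217-114706235, minus strand) and Rpl10-ps3 (chr9:50344201-50344968, minus strand), all on GRCm38. The first 60 coding bases, from GENCODE M21 transcripts, are shown because they are the same letters in gene and copy, as is the rest of the coding sequence (252, 495, 891 and 642 bases without a difference):
Rps27 and Rps27rt: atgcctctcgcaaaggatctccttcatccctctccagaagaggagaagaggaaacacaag
Rpl12 and Gm10275: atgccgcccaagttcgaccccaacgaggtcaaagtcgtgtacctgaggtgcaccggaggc
Rpl5 and Gm15500: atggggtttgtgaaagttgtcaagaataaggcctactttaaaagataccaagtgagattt
Rpl10 and Rpl10-ps3: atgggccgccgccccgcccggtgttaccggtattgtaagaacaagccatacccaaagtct
Reads from these stretches cannot be told apart, so a level of the gene alone is uncertain. No capitals are used because no base differs.

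Of the summed counts of gene and copies, the row of the gene held 4.67% for Rps27, 10.4% for Rpl12, 15.8% for Rpl5 and 21.1% for Rpl10. In cortex Rps27 averaged 6.54 ± 3.73 CPM (SD, n = 20) and its copy 129.7 CPM. By level per kb, Rps27 held place 14 of the 56 with its copy and place 55 alone, and Rpl10 place 15 with its copies and place 51 alone. Rpl5 and Rpl12 were low also with their copies, at places 50 and 54. The SD of log2(CPM + 1) of Rps27 over all libraries was 0.708 alone and 0.16 with Rps27rt. For Rps23 it was 0.216 alone and 0.152 with Rps23-ps1, a processed pseudogene row that ranged from 0 to 75.3 CPM between striatal libraries.

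**Figure D2:**
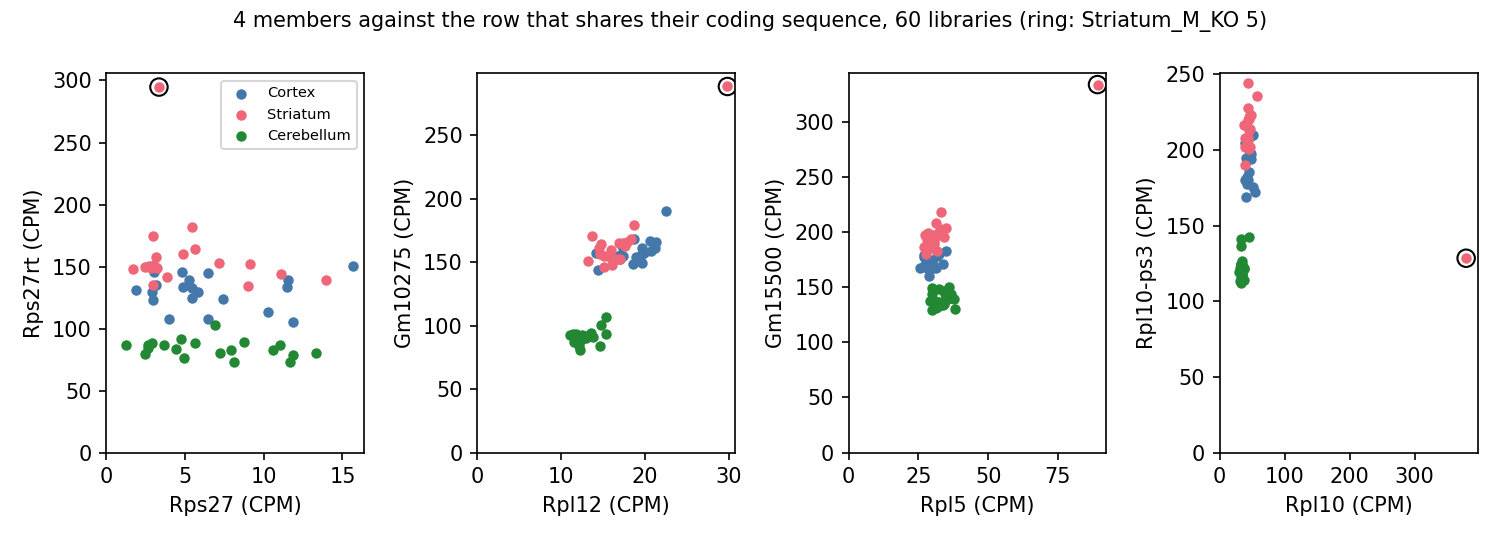
CPM of Rps27, Rpl12, Rpl5 and Rpl10 (x axes) against CPM of the row that shares their coding sequence (y axes) in each of 60 libraries, coloured by region, all axes starting at 0. Rps27 reaches at most 15.7 CPM in any library while its copy ranges from 73.0 to 294.7 CPM, and the ringed library, male KO striatum replicate 5, has 379 CPM of Rpl10 and 128 CPM of Rpl10-ps3.

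The regions differed in most of these genes. In cerebellum against cortex, 45 of the 56 genes were called lower and 1 higher (edgeR, adjusted p under 0.05), with a median log2 change of -0.34 against 0.0029 over all 20387 genes tested. Calls were common in this comparison: 79.6% of all genes were called, 39.5% lower and 40.1% higher, so the count of falls is 45 of 56 where 39.5% of all genes fell. The CPM ranges of 20 and 20 libraries did not overlap for 16 of the 56 genes, all lower in cerebellum, against 16.8% of all genes lower without overlap.

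Rps2, a small subunit protein at the mRNA entry side (chr17:24718116-24721929, plus strand), fell most. Its lowest, median and highest levels were 117, 127 and 154 CPM in cerebellum and 241, 260 and 308 CPM in cortex, without overlap. The log2 change was -1.05 (SE 0.053, adjusted p = 3.94e-25). Rps23, a protein of the decoding centre (chr13:90922958-90924950, plus strand), had 97.4, 115 and 149 CPM in cerebellum and 183.5, 213.8 and 245 CPM in cortex, also without overlap. Its log2 change was -0.89 (SE 0.085, adjusted p = 5.9e-14) alone and -0.55 (SE 0.063) with Rps23-ps1 added, so its second place depends on how reads were shared with that row.

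Rplp1 (chr9:61913284-61914542, minus strand), an acidic protein of the stalk that calls in translation factors, had 263, 285 and 359 CPM in cerebellum and 426, 491 and 553 CPM in cortex. Its ranges did not overlap, and its log2 change was -0.76 (SE 0.061, adjusted p = 7.96e-17). Rps15 (chr10:80292453-80294114, plus strand), near the decoding site of the small subunit, averaged 217 ± 16.7 CPM in cerebellum and 349.6 ± 24.1 CPM in cortex (SD, n = 20 each; log2 change -0.69, SE 0.058). Rps19 (chr7:24884371-24889806, plus strand), mutated in Diamond-Blackfan anaemia in humans, averaged 86.7 ± 6.79 CPM in cerebellum and 137.5 ± 11.1 CPM in cortex (log2 change -0.66, SE 0.065).

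Other genes of the same particles moved little between these regions. Rplp0, the scaffold on which the stalk proteins sit, averaged 154.7 ± 8.58 CPM in cerebellum and 155.9 ± 7.45 CPM in cortex (SD, n = 20 each), a log2 change of -0.012 (SE 0.039, adjusted p = 0.794). The stalk partner Rplp2 averaged 147.8 ± 8.82 CPM in cerebellum and 156.9 ± 10.7 CPM in cortex (log2 change -0.085, adjusted p = 0.176). The ratio of counts of Rplp1 to Rplp0 therefore set the regions apart, at 1.69 to 2.07 in cerebellum, 3.22 to 5.03 in striatum and 2.74 to 3.42 in cortex. The ratio of Rplp2 to Rplp0 did not, at 0.875 to 1.06 in cerebellum, 0.933 to 1.52 in striatum and 0.892 to 1.12 in cortex. Likewise Rps2 counts per count of Rps3, another protein at the mRNA entry, were 0.506 to 0.624 in cerebellum, 0.905 to 1.41 in striatum and 0.916 to 1.17 in cortex. The cerebellar ranges of Rplp1 to Rplp0 and of Rps2 to Rps3 lay below those of both other regions. Rps23 counts per count of Rps24 did not separate in this way, at 0.391 to 0.542 in cerebellum, 0.485 to 0.935 in striatum and 0.597 to 0.911 in cortex. Rplp1 and Rps2 were already picked as large falls, and how many gene pairs separate was not counted.

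**Figure D3:**
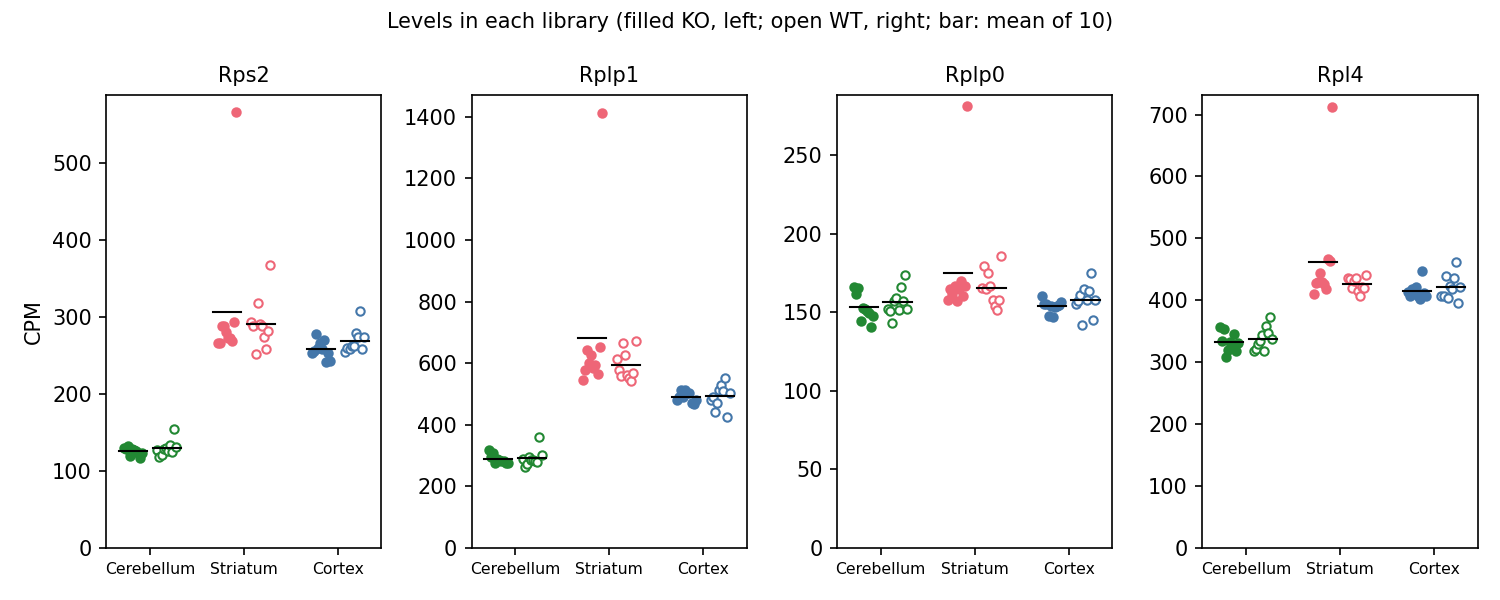
CPM of Rps2, Rplp1, Rplp0 and Rpl4 in each library by region (KO filled and left, WT open; bar, mean of 10; axes start at 0). Rps2 and Rplp1 in cerebellum (117 to 154 and 263 to 359 CPM) lie below every cortical and striatal library, while Rplp0 overlaps between cerebellum and cortex.

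The median was lower for the small subunit genes than for the large subunit genes in cerebellum against cortex. Of 22 Rps genes 20 were called lower, with a median log2 change of -0.49, and of 34 Rpl genes 25 were called lower and 1 higher, with a median of -0.29. This difference between the subunits was not tested. The 1 gene called higher was Rpl5, which with Rpl11 and 5S rRNA binds MDM2. Its lowest, median and highest levels were 29.0, 33.1 and 38.1 CPM in cerebellum and 25.5, 29.8 and 35.01 CPM in cortex, overlapping, with a log2 change of 0.16 (SE 0.074, adjusted p = 0.0443). With Gm15500 added, the log2 change of Rpl5 was -0.24 (SE 0.044, adjusted p = 2.96e-06), so the only rise turned into a fall. The call was also lost without Cerebellum_M_WT replicate 4 (0.15, adjusted p = 0.0625). Rps27 had a log2 change of 0.016 (adjusted p = 0.956) alone and fell by 0.58 (adjusted p = 1.48e-15) with Rps27rt. With all copies added, 47 genes were called lower and 1 higher.

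In striatum against cortex, 42 of the 56 genes were called higher and 1 lower, with a median log2 change of 0.19, where 57% of all genes were called, 28.8% higher and 28.2% lower. No gene of the 56 had CPM ranges without overlap in this comparison, against 3.5% of all genes that were higher and 4.23% that were lower without overlap. Without Striatum_M_KO replicate 5 the counts were 39 higher and 1 lower, and the median fell to 0.104. Rplp1 rose most, with 541, 590 and 1414 CPM in striatum (lowest, median, highest) and 426, 491 and 553 CPM in cortex. Its log2 change was 0.37 (SE 0.061, adjusted p = 6.69e-07), and 0.28 (SE 0.031) without that library. The highest striatal value belongs to that library.

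Rpsa, a small subunit protein that also serves as a laminin receptor (chr9:120127689-120132369, plus strand), had 416, 468 and 804.5 CPM in striatum and 354, 389 and 426 CPM in cortex. Its log2 change was 0.31 (SE 0.041, adjusted p = 4.4e-09), and 0.26 without the library. Rps12, Rps29 and Rpl30, small proteins of either subunit, rose by 0.34, 0.32 and 0.31 on the log2 scale with all libraries and by 0.27, 0.27 and 0.26 without it. The call for Rps23 (0.20, adjusted p = 0.0407) was lost without it (0.093, adjusted p = 0.163). The fall of Rpl12 (-0.16, adjusted p = 0.022) became 0.040 (adjusted p = 0.464) with Gm10275 added, and with all copies added 46 genes were called higher, none lower, and 56 of 56 had a positive log2 change.

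In cerebellum against striatum, 53 of the 56 genes were called lower and none higher, with a median log2 change of -0.48, where 79.8% of all genes were called, 40.2% lower and 39.7% higher. For 24 genes the CPM ranges did not overlap, all lower in cerebellum, against 13.9% of all genes lower without overlap. Without Striatum_M_KO replicate 5 there were again 53 lower and 2 higher, with a median of -0.413. Rps2 fell by 1.23 (SE 0.053), Rplp1 by 1.13 (SE 0.061), Rps23 by 1.09 (SE 0.085), Rps19 by 0.87 (SE 0.066) and Rps15 by 0.85 (SE 0.059) on the log2 scale. DESeq2 called 52 lower and none higher, and limma on the deposited log2 values with the deposited weights called 53 lower and 2 higher. Over all genes the slope of the log2 change was -0.021 per doubling of transcript length for cerebellum against cortex, -6.43e-05 for cerebellum against striatum and -0.021 for striatum against cortex.

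**Figure D4:**
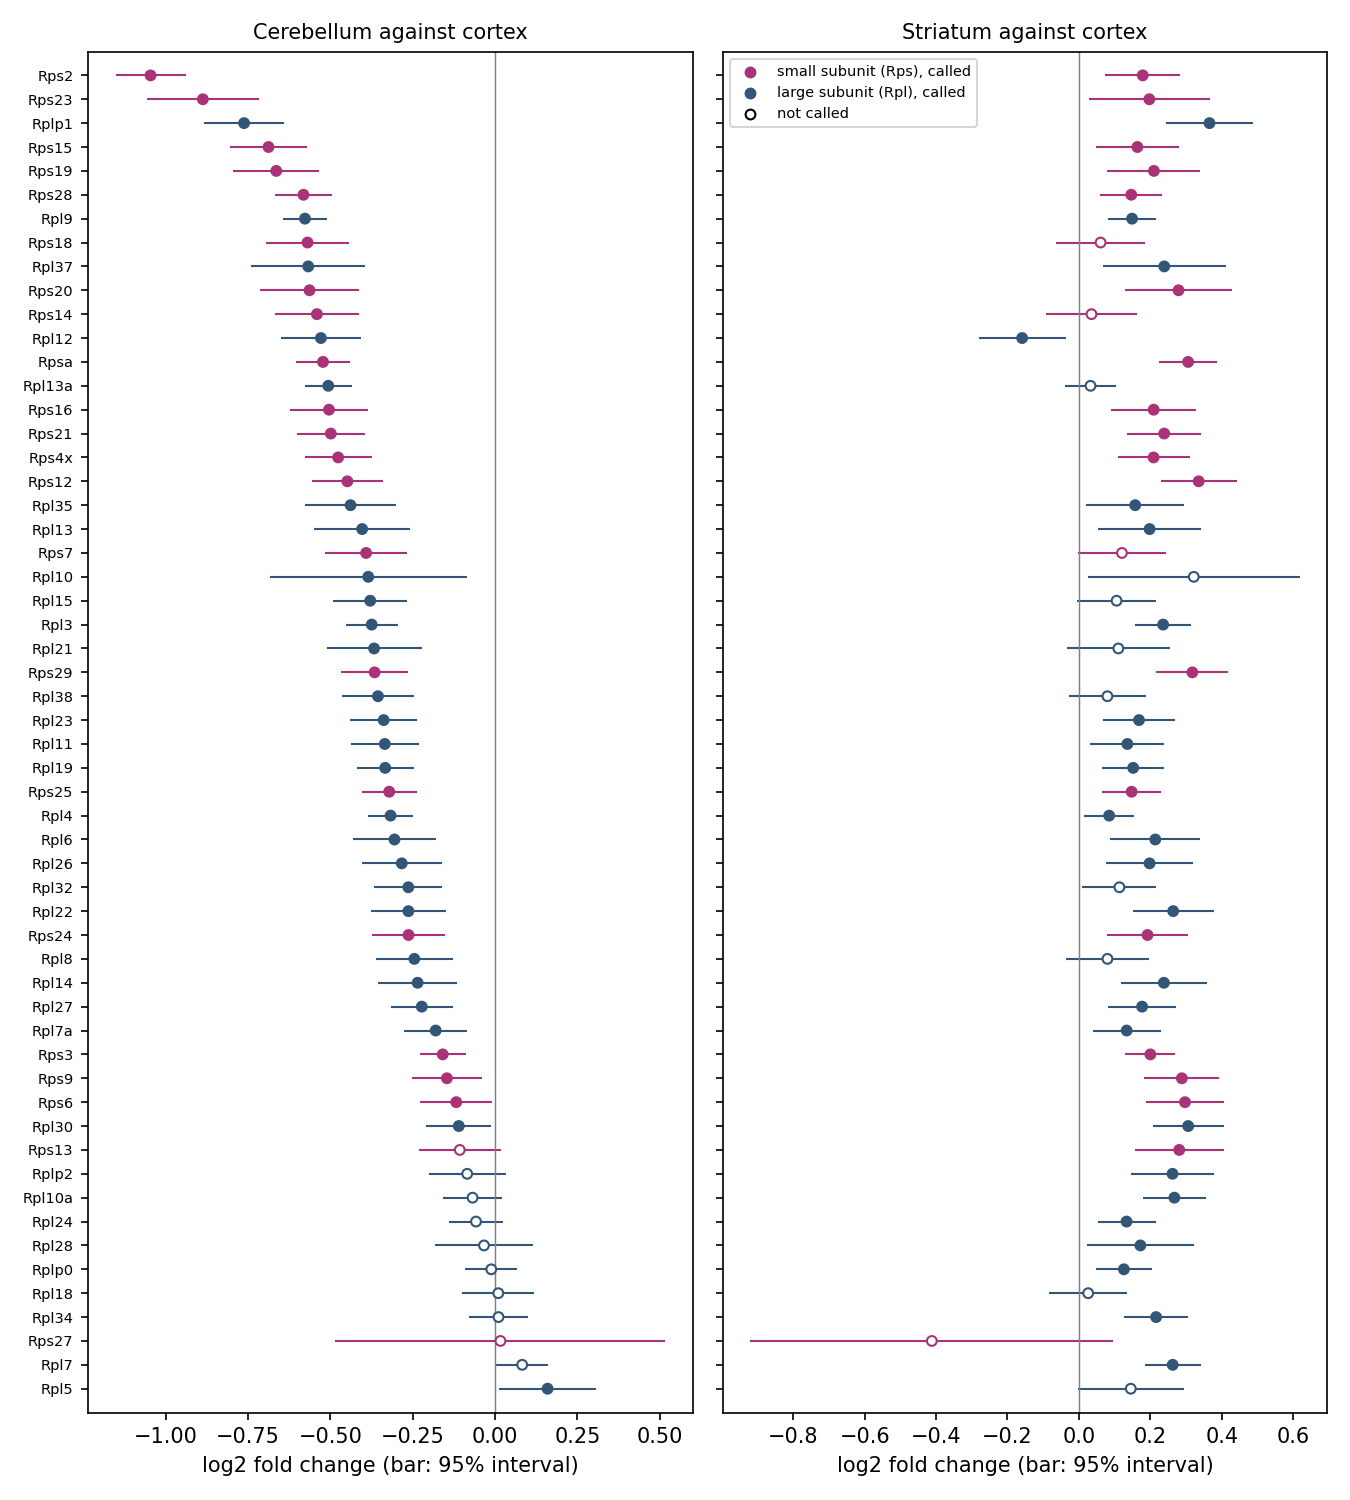
Log2 change with 95% interval of each of the 56 genes, cerebellum against cortex (left, which sets the order) and striatum against cortex (right); filled points have an adjusted p under 0.05, purple for the small and blue for the large subunit. Most points lie left of 0 in the first panel, down to -1.05 for Rps2, and right of 0 in the second, with a wide interval for Rps27.

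Another 24 cytosolic ribosomal protein genes had 22 called lower in cerebellum against cortex (median log2 change -0.23), 24 called higher in striatum against cortex and 24 called lower in cerebellum against striatum. Among these, Rpl41, which encodes a tiny basic peptide, changed by -0.84 (SE 0.065) and Rpl31 by -0.46 (SE 0.045) in cerebellum against cortex. The lists that follow are read against the 39.5% of all genes called lower and 40.1% called higher in cerebellum against cortex. Of 59 mitochondrial ribosomal protein genes, 20 were called lower and 21 higher. Of 26 translation factor genes 13 were called lower and 9 higher, and of 31 genes of ribosome assembly and rRNA synthesis 9 were called lower and 15 higher. For 17 genes of mTORC1 and LARP1 control, 6 were called lower and 7 higher.

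The start regions of the genes were read for the pyrimidine run of TOP mRNAs. A start was found for 46 of the 56 genes among the RefSeq windows on GRCm38.p6, and a window of 70 bases, from 20 before to 50 after the annotated start on the strand of the gene, was searched for a run of 8 or more C or T. A gene with several starts was counted once, by its longest run at any of them. Such a run was found for 35 of 46 genes (76.1%) and for 12 of 13 other cytosolic ribosomal protein genes (92.3%). It was found for 25.5% of 51 mitochondrial ribosomal protein genes, 50.0% of 20 translation factor genes and 28.5% of all 27025 genes with a start. A run of 8 or more A or G, the same motif on the other strand, was found for 13.0% of the 46 genes and 31.7% of all genes with a start. A run is a description of the letters and not a measured start. The 30 bases around the longest run, in capitals, are given for the 4 genes with the largest falls in cerebellum against cortex and the 4 with the smallest changes. Both were taken among genes with a single RefSeq start, with a chromosome left out:
Rps2: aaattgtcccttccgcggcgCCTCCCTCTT
Rps23: tgggtccttcctgcaCCTCCTCTCTCTTTC
Rps15: gcagcccgtaCTTCCTTTTCCgagtaaccg
Rps28: TCCTgggtaccgcgtgcggtctcgcgagag
Rpl18: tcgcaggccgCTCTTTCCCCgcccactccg
Rplp0: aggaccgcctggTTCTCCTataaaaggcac
Rps27: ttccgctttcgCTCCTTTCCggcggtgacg
Rpl28: gcctctcgtgTCTCTCTTTCCgtctccggc
The first 4 are the falls, with runs of 10, 15, 11 and 4 bases inside the window, and the last 4 the small changes, with runs of 10, 7, 9 and 11 bases. Rplp1 and Rps19 fell more than Rps28 but were outside this choice. The runs of Rps2 and Rps23 end at the far edge of the window and that of Rps28 begins at its near edge, so these 3 may go on outside it. Rps2 lies at chr17:24720083-24720112 (plus), Rps23 at chr13:90923142-90923171 (plus), Rps15 at chr10:80292446-80292475 (plus) and Rps28 at chr17:33824553-33824582 (minus). Rpl18 lies at chr7:45718062-45718091 (plus), Rplp0 at chr5:115559466-115559495 (plus), Rps27 at chr3:90213632-90213661 (minus) and Rpl28 at chr7:4792952-4792981 (plus).

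No gene of the 56 passed the test between KO and WT in any region, sex or combination with edgeR. With both sexes together, 0 of 56 were called in KO cortex, where 0.0316% of all genes were called, 0.0211% higher and 0.0105% lower. In KO striatum 0 of 56 were called, where 0.0105% of all genes were, 0.00527% in each direction. In KO cerebellum 0 of 56 were called, where 0.0321% of all genes were, 0.0107% higher and 0.0214% lower. At an unadjusted p under 0.05, 10 were lower and none higher in KO cortex, where 4.85% of all genes were lower and 6.53% higher. In KO striatum 4 were higher and none lower, where 3.01% of all genes were higher and 1.93% lower, and in KO cerebellum 2 were higher and 3 lower, where 5.89% were higher and 5.23% lower. DESeq2 called 1 gene lower in cortex (0.385% of all genes were lower by it) and none in the other regions, and limma with either set of weights called none. The median log2 change of KO over WT was -0.050 for cortical, 0.13 for striatal and -0.015 for cerebellar libraries. The striatal median was -0.0095 without Striatum_M_KO replicate 5, and the cerebellar one 0.0097 without Cerebellum_M_WT replicate 4, so both signs turned.

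The gene nearest to a call in cortex was Rps12, a small subunit protein known from flies for its part in cell competition. Its lowest, median and highest levels were 88.0, 96.5 and 109 CPM in KO and 94.4, 106 and 125 CPM in WT, with overlapping ranges. The log2 change was -0.16 (SE 0.043, adjusted p = 0.135), and DESeq2 gave -0.16 with an adjusted p of 0.0397. Over 30 alternatives its adjusted p ranged from 0.0397 to 0.674. Rpl13a, which in human cells also silences inflammatory mRNAs, had 343, 355 and 400 CPM in KO and 364, 380 and 406 CPM in WT cortex, and a log2 change of -0.091 (SE 0.027, adjusted p = 0.178). Rpl5 and Rps28 had log2 changes of -0.12 and -0.11. Of the 5 genes with a positive log2 change in cortex, Rpl26 had 0.031 and Rpl7a 0.026, and Rpl22 and Rpl14 had under 0.01.

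In striatum Rpl34 had 107, 122 and 176 CPM in KO and 95.6, 107 and 133 CPM in WT, with a log2 change of 0.22 (SE 0.073, adjusted p = 0.766). The highest KO value is replicate 5 of the male group. Without it the log2 change was 0.16 (adjusted p = 0.444). Rpl9, Rplp2 and Rpl10a had log2 changes of 0.15, 0.27 and 0.18 with that library and 0.080, 0.10 and 0.081 without it. The 3 negative ones were Rps27 (-0.33), Rpl11 (-0.0076) and Rps23 (-0.00033), and with copies added all 56 were positive. Without that library 25 of the 56 log2 changes were positive and 31 negative. In cerebellum Rpl13a had 227, 248 and 274 CPM in KO and 245, 269 and 325 CPM in WT, with a log2 change of -0.13 (SE 0.045, adjusted p = 0.27). Rpl10a had 99.3, 106 and 117 CPM in KO and 89.9, 100 and 106 CPM in WT, with a log2 change of 0.10 (SE 0.037, adjusted p = 0.289). Rpl3, Rpl11 and Rps18 had log2 changes of -0.074, -0.087 and -0.069, and Rpl30 and Rpl5 of 0.068 and 0.087.

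By sex, the medians over all libraries differed in sign in every region, but not under every alternative. In cortex the median log2 change was -0.10 in males, with 1 of 56 genes positive, and 0.0069 in females, with 31 positive. At an unadjusted p under 0.05, 27 genes were lower in KO males and none higher, where 6.19% of all genes were lower and 7.82% higher, and 1 was higher in KO females, where 3.84% of all genes were. The female median was -0.0078 without Cortex_F_KO replicate 5, and with the slope from the longest transcript both medians were negative (-0.0056 in males, -0.0074 in females). edgeR called 0 of 56 in males, where 0.148% of all genes were called, 0.111% higher and 0.0369% lower, and 0 in females, where 0.00527% were. The difference of the effect between males and females had a median of -0.11, with 0 of 56 called (0% of all genes) and 18 lower at an unadjusted p under 0.05, where 4.37% of all genes were. DESeq2 called 11 of the 56 lower in KO males, where it called 0.633% of all genes lower: Rplp2, Rpl13a, Rps19, Rpl30, Rps12, Rpl23, Rpl35, Rpl6, Rpl24, Rps2 and Rpl5. It also called the difference between the sexes for Rpl30 (-0.40, adjusted p = 0.0258, against -0.41 and 0.249 by edgeR and a range of 0.0258 to 0.99 over 30 alternatives), where it called 0.0896% of all genes lower.

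The male cortical values rest on the WT libraries. Rps12 had 99.4, 95.6, 88.0, 96.3 and 97.4 CPM in male KO cortex, against 113, 125, 116, 94.4 and 106 CPM in male WT cortex, so that only WT replicate 4 lay among the KO libraries. Without that library edgeR called 5 genes lower in males (Rps12, Rplp2, Rpl24, Rps15 and Rpl13a, log2 changes of -0.28, -0.22, -0.16, -0.18 and -0.17), where 0.277% of all genes were lower, and the median was -0.13. At an unadjusted p under 0.05, 44 were then lower in males, where 7.61% of all genes were. With both sexes the median was then -0.0683, with 2 of the 56 positive. Without WT replicate 3, the highest, 0 were called, as with all libraries, and the male median was -0.0815, with 5 of the 56 positive. At an unadjusted p under 0.05, 21 were still lower in males, against 27 with all libraries. Male cortical changes followed transcript length over all other genes, with a slope of 0.025 per doubling of length. The medians of these other genes were -0.065 under 500 nt and 0.047 from 4000 nt up. From 500 to 1000 nt, where the median length of the 56 genes lies, the median was -0.039. With the length slope of each library in the fit, the median of the 56 genes in male cortex was -0.026, with 22 positive and 0 called.

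The Rps27 pair showed a genotype difference once its reads were summed, an alternative chosen after seeing the data. Rps27 with Rps27rt had 133, 112, 114, 117 and 126 CPM in male KO cortex, against 144, 150, 151, 166 and 151 CPM in male WT cortex. All KO libraries lay below all WT libraries, but how many of all genes separate in this way was not counted. The log2 change was -0.35 (SE 0.052, adjusted p = 0.0123), and edgeR called 0.0369% of all genes lower in that fit. In females the sum was 123, 130, 138, 135 and 138 CPM in KO cortex, against 145, 138, 131, 133 and 148 CPM in WT cortex. The female ranges overlapped, and the log2 change was -0.066 (SE 0.052, adjusted p = 0.874). The difference between the sexes was -0.28 (SE 0.074, adjusted p = 0.295), and with both sexes together the sum was lower by -0.21 (SE 0.037, adjusted p = 0.0429), where 0.0158% of all genes were called lower.

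The row of Rps27 alone gave -0.64 (SE 0.46, adjusted p = 0.556) in males, and over its 30 alternatives, the sum among them, the adjusted p ranged from 0.0123 to 0.807. With both sexes together that range was 0.0429 to 0.959. The row of Rps27rt alone was called lower in male KO cortex (-0.33, SE 0.06, adjusted p = 0.0329). Rpl17, a large subunit gene outside the 56, was the only other gene of the related lists of cytosolic ribosomal proteins called there (-0.21, SE 0.04, adjusted p = 0.0356).

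In striatum the median log2 change was 0.31 in males, with 55 of 56 positive, and -0.043 in females, with 12 positive. In neither sex was a gene of the 56 called by edgeR, DESeq2 or limma, and edgeR called 0.00527% of all genes in each sex. At an unadjusted p under 0.05, 19 genes were higher and 1 lower in KO males, where 3.76% of all genes were higher and 2.2% lower, and none passed in KO females. Without replicate 5 of the male KO group the male median was 0.026, with 39 positive, 1 higher and 1 lower at that p, and the median of both sexes was -0.0095. Without Striatum_M_WT replicate 5 the male median was 0.353 instead, with 55 positive, and 34 were higher and 1 lower at that p. The median of both sexes was then 0.159. limma with the deposited weights, which give replicate 5 of the male KO group little weight, had a male median of 0.0715. With the length slope in the fit, the medians were 0.064 in males and 0.071 in females, so both were positive. The difference between the sexes had a median of 0.34 with all libraries, and 0 of 56 were called (0% of all genes). That median was 0.055 without replicate 5 of the male KO group, 0.4 without Striatum_M_WT replicate 5 and -0.024 with the length slope.

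In cerebellum the median was -0.084 in males, with 4 of 56 positive, and 0.054 in females, with 48 positive. edgeR called 0 of 56 in males (0.016% of all genes were called, 0.00534% higher and 0.0107% lower) and 0 in females (0.00534% of all genes). At an unadjusted p under 0.05, 12 were lower in KO males, where 5.06% of all genes were, and 7 higher in KO females, where 2.75% were, and DESeq2 and limma called none. The difference between the sexes had a median of -0.14, with 13 lower at that p, where 2.37% of all genes were, and 0 called (0% of all genes). Without WT replicate 4 of the male group the male median was -0.025, with 14 positive, and at that p none was lower and 1 higher in KO males and 15 were higher in KO females. The difference between the sexes then had a median of -0.0813, with 5 lower at that p.

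Rpl15, a large subunit protein that is mutated in some patients with Diamond-Blackfan anaemia, was higher in every KO than in every WT female cerebellum. It was singled out after its values were seen, and how many of all genes separate in this way was not counted. Rpl15 also shares 24.2% of its stretches of 31 bases with the processed pseudogene row Rpl15-ps3. Its copies took 15.4 to 26.9 CPM over all cerebellar libraries. With copies added and all libraries kept, Rpl15 was not called in females or in both sexes together. Whether the female ranges separate for that sum, or the call given below holds for it, was not tested. The 5 levels of the Rpl15 row alone were 120, 123, 117, 109 and 113 CPM in female KO cerebellum, against 88.6, 91.5, 99.5, 100.1 and 90.6 CPM in female WT cerebellum. The log2 change was 0.30 (SE 0.072, adjusted p = 0.655). In males the levels were 117, 112, 116, 117 and 117 CPM in KO, against 113, 108, 106, 152 and 112 CPM in WT (log2 change -0.027, SE 0.071). Without WT male replicate 4, the 152 CPM library, the SE for females was 0.042 and edgeR called Rpl15 higher in KO females (0.30, adjusted p = 0.00666, with a range of 0.00666 to 1 over 30 alternatives, where 0.0053% of all genes were called higher) and in both sexes together (0.19, adjusted p = 0.0238, with a range of 0.0238 to 0.707, where 0.0159% were). The difference of its genotype effect between males and females was -0.33 (adjusted p = 0.967).

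**Figure D5:**
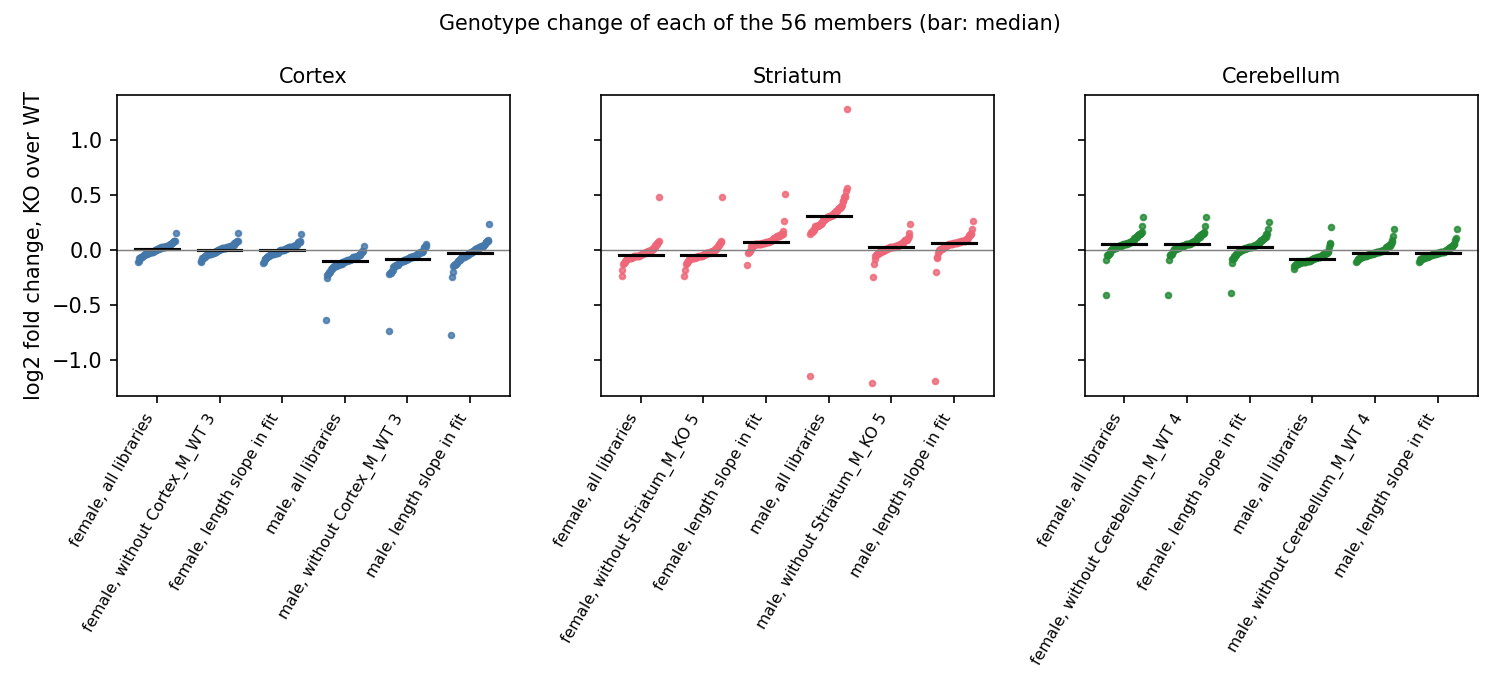
Log2 change, KO over WT, of each of the 56 genes by sex and region (bar, median). Columns show all libraries, 1 library of the region left out, and the length slope of each library in the fit. The library left out is Cortex_M_WT replicate 3, Striatum_M_KO replicate 5 or Cerebellum_M_WT replicate 4. Without Cortex_M_WT replicate 4, not drawn, the male cortical median is -0.13. The male striatal median is 0.31 with all libraries and 0.026 without replicate 5 of the KO group, and the male cortical median is -0.10 with all libraries and -0.026 with the length slope.

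Between regions, the genotype effect did not differ for any of the 56 genes by edgeR. For striatum against cortex 0 were called (0% of all genes), with a median difference of 0.18 and 14 higher at an unadjusted p under 0.05, where 3.51% of all genes were. For cerebellum against cortex 0 were called (0.0147% of all genes) with a median of 0.024, and for cerebellum against striatum 0 were called (0.00981% of all genes) with a median of -0.15. Without Striatum_M_KO replicate 5 the medians against cortex and for cerebellum against striatum were 0.0353 and -0.00443, and 7 were higher at that p for striatum against cortex. limma called Rpl15 in cerebellum against cortex, with a difference of 0.30 on the deposited values (adjusted p = 0.0297, where 0.0196% of all genes were called higher) and 0.30 with library quality weights (adjusted p = 0.0293), against 0.26 (adjusted p = 1) by edgeR and a range of 0.0293 to 1 over 49 alternatives. DESeq2 called none.

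Striatum_M_KO replicate 5 changed nearly all ribosomal protein mRNAs at once. Of the 56 genes, 55 were above all 19 other striatal libraries, where 27.9% of all genes were, and their median log2 difference from the mean of those 19 was 1.06. Rpl37 had 519.9 CPM against a mean of 154 CPM in the other 19, and Rpl21 had 806 CPM against 274.5 CPM. Rpl10 had the largest difference, with 379 CPM against 44.3 CPM, a log2 ratio of 3.10. Its copies, nearly all Rpl10-ps3, were lower, with 129 CPM against 190.3 to 244.4 CPM in the other 19, and the sum of gene and copies had a log2 ratio of 0.972, close to the median of the 56. Rps27 was the only gene of the 56 that was not higher, with 3.34 CPM against 5.17 CPM, and with Rps27rt its sum was 298 CPM against 157 CPM (log2 ratio 0.925).

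The other genes of that library, grouped by transcript length, had median log2 differences of 0.026 under 500 nt (558 genes), 0.27 from 500 to 1000 nt, 0.21 from 1000 to 2000 nt, -0.031 from 2000 to 4000 nt and -0.38 from 4000 nt up. The other cytosolic ribosomal proteins had a median of 1.10, with 24 of 24 higher, the mitochondrial ribosomal proteins 0.81, with 58 of 59 higher, and the translation factors 0.56, with 22 of 26 higher. Choroid plexus markers were higher too, with a median of 1.44 (10 of 10 higher), as were ependymal markers at 1.47 (6 of 6) and red blood cell markers at 0.90 (5 of 5). Striatal projection neuron markers had a median of 0.30, with 6 of 8 higher. The deposited weights of the library averaged 0.053 of the median striatal library. The part of these in the result was not tested.

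The other libraries with high values shared some of these features. In Cerebellum_M_WT replicate 4 all 56 genes were above the mean of the other 19 (median 0.28), with red blood cell markers at 0.996 (5 of 5 higher) and choroid plexus markers at 1.03 (10 of 10). In Striatum_M_WT replicate 5 the median was 0.20 (53 of 56 higher), with red blood cell markers at 0.83 (5 of 5) and choroid plexus markers at 1.48 (9 of 10). In Cortex_M_WT replicate 3 the median was 0.18 (56 of 56 higher), with red blood cell markers at 0.87 (5 of 5) and choroid plexus markers at -0.68 (0 of 10 higher). Red blood cell markers were thus higher in all 4 libraries, which were picked for high ribosomal protein levels. Both marker sets varied widely. The summed red blood cell level was 156 to 523 CPM over all striatal libraries and 264 to 949 CPM over all cerebellar ones. It was 198 to 704 CPM over all cortical libraries. The summed choroid plexus level was 28.7 to 1877 CPM over all striatal libraries and 35.1 to 2691 CPM over all cerebellar ones. Whether these markers have a part in the ribosomal protein levels was not tested.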

How the data were processed

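Total RNA of pulverised tissue (30 to 50 mg, Qiagen RNeasy, per the labels' protocols) was sequenced as 150 nt pairs. The authors deposited expected counts per gene, made with Salmon per the submitters' processing notes, which also name edgeR and limma. They also deposited log2 CPM values and, as a score for each of these, voom precision weights. The software versions and the genome build were not given in the sources used here. Each deposited log2 value was checked to be the logarithm of count plus offset (0.5) per TMM-scaled total, to within 5.33e-14.

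Here, expected counts were rounded and fitted with edgeR 4.0.16 (R 4.3.3): filterByExpr, TMM, quasi-likelihood F tests, 2-sided, 1 fit per region of 20 libraries for genotype and 1 fit of all 60 for regions, with Benjamini-Hochberg adjustment over all genes at 0.05. DESeq2 1.42.0 and limma 3.58.1 (deposited or quality weights) were alternatives, with no filter, a length slope per library, a replicate block, copies summed and each library left out. Counts under an alternative are given without the share of all genes unless that share is stated. The length slope from the longest transcript and the sums with copies were chosen after seeing the data. Symbols, positions and lengths come from GENCODE M21 (GRCm38) by Ensembl ID, which matched 20403 of 20423 genes. A copy is a row sharing at least 10% of a gene's 31-mers. The fit was tested on simulated data. The genes, lists and tests were chosen with earlier results of these data known. Genes were named by rank: the largest called changes, the smallest p by genotype, and the extremes of level, length and spread; Rpl15 by sex, the Rps27 sum and the copies were singled out after their values were seen.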

Additional observations from a re-analysis of the deposited data

Results flagged for a closer look

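In 4 of 12 groups 1 library lay far from the other 4 in the median log2 deviation of the 56 genes from their region (gap over range above 0.71), where chance gives about 1 group in 20. These were Striatum_M_KO replicate 5 at 1.008 (gap over range 0.868), Striatum_M_WT replicate 5 at 0.136 (0.958), Striatum_F_WT replicate 3 at -0.111 (0.719) and Cerebellum_M_WT replicate 4 at 0.269 (0.87). In Striatum_F_WT replicate 3 only 1 of the 56 genes was above the striatal mean.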

How the results depend on the processing

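In 13 of 658 comparisons with an alternative the main value moved. Nearly all of the 658 are counts of called genes, where a move is a change by over 1.5 times. The rest are the level per kb and the deviation of Striatum_M_KO replicate 5, where a move is a change past the SD between libraries. In cortex, DESeq2 called 1 of the 56 genes with both sexes, 11 in males and 1 for the difference between the sexes, and the sum with copies called 1 with both sexes and 1 in males. In cerebellum, the slope from the longest transcript called 1 with both sexes and 1 in females, and both limma fits called 1 for cerebellum against cortex in the genotype effect, all Rpl15. Leaving out 1 library at a time gave 0 to 1 in cerebellum (both sexes, and females) and 0 to 5 in male cortex. For the levels of the members, the median was 165.278 CPM per kb with the longest transcript as length and 220.55 CPM per kb with the median one. With copies summed, the sign turned for Rpl5 in cerebellum against cortex (-0.2362), Rpl12 in striatum against cortex (0.0402), and in the striatal genotype comparison for Rps27 (0.1131), Rpl11 (0.0184) and Rps23 (0.0593). The last also turned with 1 fit over all libraries (0.0002) and with no filter (0.0004). With 1 library left out, uncalled genotype changes crossed 0 for Rpl14 (-0.0103 to 0.0219) and Rpl22 (-0.0129 to 0.0192) in cortex and Rpl11 (-0.1259 to 0.0366) and Rps23 (-0.2133 to 0.0642) in striatum. Equal replicate numbers were not taken as pairs of KO and WT, since correlations of same-numbered libraries averaged between -0.016 and 0.17 and were not all over 0.1. The highest mean was that of male striatum, with same-number values of 0.070 to 0.41 against a mean of -0.040 for other numbers. Replicate 5 stood apart in both male striatal groups. What equal numbers share there was not tested. Between regions within a group the same-number means were 0.014 to 0.088, against -0.022 to -0.0033 for other numbers, a hint from the data and not from the design. With a replicate block the male striatal median was 0.227, and no gene was called by genotype. The cause of these moves was not tested. The spread between libraries limits what a genotype test can show. The biological coefficient of variation of the whole-table fit was 0.12 in cortex, 0.187 in striatum and 0.128 in cerebellum. These values are not of the 56 genes alone, and the striatal one includes Striatum_M_KO replicate 5.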
